A study of Mus musculus with 6 samples.

Results

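The genes of BMP and JAK-STAT signalling that are known for their part in gliogenesis were followed in newborn mouse cortex with 1 disrupted copy of Npas3 and in wild-type cortex. The set holds 37 genes, listed by symbol for their roles in these pathways, of 53379 genes in the count table. They are 25 genes of the BMP branch and 12 genes of the JAK-STAT branch. Each was found by its symbol, and 36 of the 37 had enough reads to be tested. Bulk RNA sequencing was done on total RNA of cortex from 3 Npas3+/- and 3 wild-type (WT) samples at postnatal day 0, all labelled with the strain C57BL/6. The labels do not say how the Npas3 allele was made, nor whether the replicates came from separate animals or pools, and the p-values below therefore reflect the spread among these 6 samples alone, which may be technical in part.

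Bone morphogenetic proteins (BMPs) bind pairs of type I and type II receptor kinases, which phosphorylate SMAD proteins. These join Smad4 and switch on target genes such as those of the Id family, whose products block proneural helix-loop-helix factors. In the second branch, cytokines that signal through gp130, such as CNTF and LIF, activate JAK kinases and the transcription factor STAT3. In the late embryonic and newborn cortex both branches are known to promote the turn of radial glia from making neurons to making astrocytes, and SOCS proteins and secreted antagonists hold them in check.

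Total counts ran from 75540885 to 87811574 in the Npas3+/- libraries and from 67378231 to 83256308 in WT. Levels are given as CPM (counts divided by the scaled depth of the library), or as RPKM (CPM per kilobase of exon) where genes are compared with each other. Npas3 stood at 14.96, 14.13 and 8.61 CPM in Npas3+/- replicates 1 to 3, against 23.4, 28.4 and 25.7 CPM in WT, so the groups did not overlap. Its log2 fold change was -1.04 (95% interval -1.52 to -0.56), which had an adjusted p of 0.27 by the quasi-likelihood test of edgeR and 0.000175 by DESeq2, both adjusted over all genes they tested. Emx1, a marker of the dorsal telencephalon from which the cortex forms, was detected in every library, at 36.0 to 39.4 CPM in Npas3+/- and 29.4 to 36.6 CPM in WT. Npas3+/- replicate 3 lay among the WT libraries on the leading principal component, and Npas3+/- replicate 2 alone had a high level of Xist (3667 CPM, against 2.02 CPM or less in the other 5 libraries). In bulk tissue, fewer cells of a type and less RNA per cell cannot be told apart.

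Most of these signalling genes lay close to WT in Npas3+/-, and those with the smallest p were BMP receptor genes, secreted antagonists and 1 feedback inhibitor. None of the 36 members tested passed at an adjusted p under 0.05 in edgeR, where 0.0377% of all 21244 genes passed (0.0282% higher and 0.00941% lower in Npas3+/-). DESeq2 called 2 of the 30 members to which it gave an adjusted p, both lower in Npas3+/-, where it called 3.4% of 15051 genes (1.51% lower). These genes were the type II receptor gene Acvr2a and the feedback inhibitor gene Socs2. At an unadjusted p under 0.05 there were 7 members in edgeR (19.4%, against 12.1% of all genes), of which 5 were lower (5.84% of all genes) and 2 higher (6.29% of all genes). The groups did not overlap for 6 members (16.7%), against 18.9% of all genes, with 5 of the 6 lower (9.18% of all genes) and 1 higher (9.7% of all genes). The median log2 fold change was -0.05 over the members, 20 of which were below 0, and -0.01 over all genes tested, of which 51.8% were below 0. Without Npas3+/- replicate 2 the members at an unadjusted p under 0.05 numbered 3 (8.33%, against 8.15% of all genes). In the 5 other fits with 1 library left out they numbered 5 to 8, a range that is not read as a result about the members. The members whose groups did not overlap numbered 11 without Npas3+/- replicate 1, 12 without Npas3+/- replicate 3 and 16 without WT replicate 3, where all genes gave 27%, 33.4% and 30.8%.

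**Figure D1:**
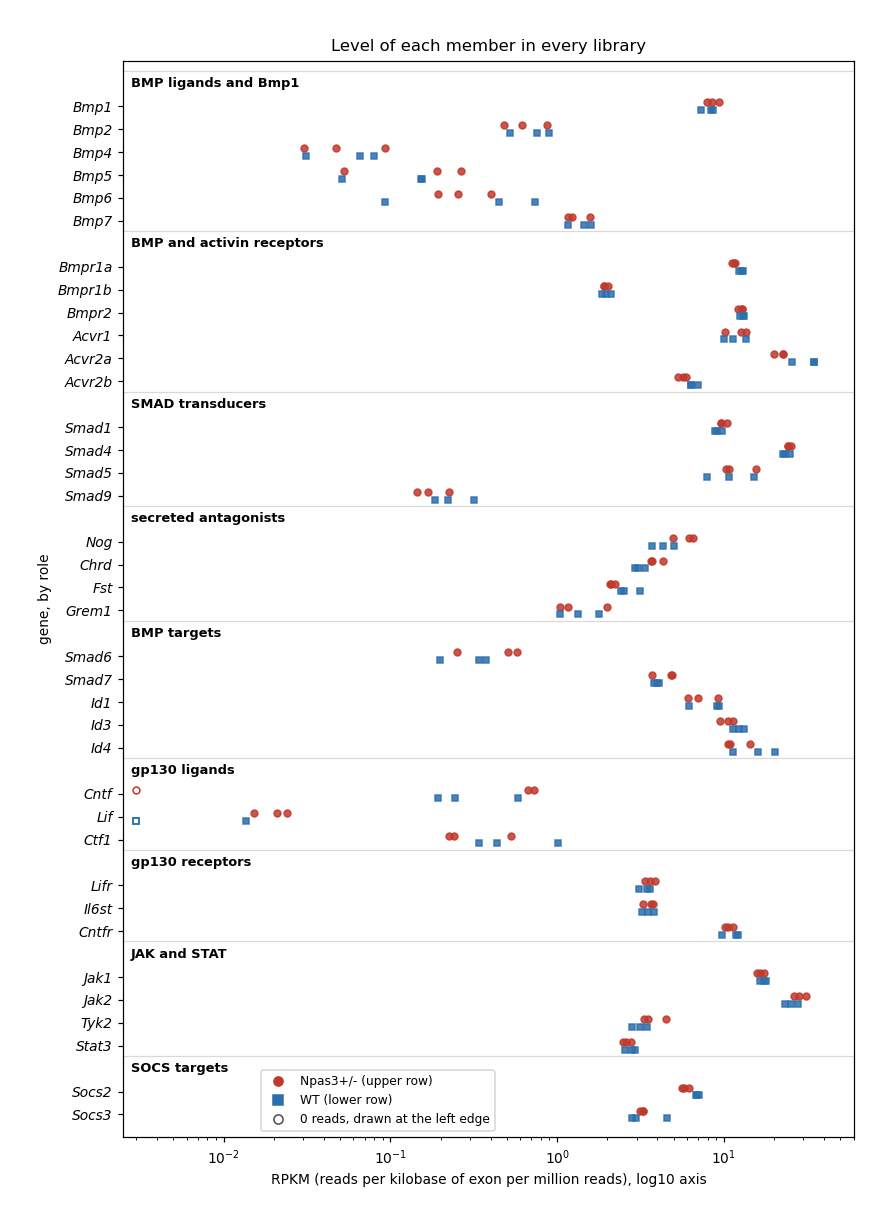
Level of each of the 37 members in every library, as RPKM on a log10 axis, by role, with Npas3+/- in the upper row (circles) and WT in the lower row (squares) of each gene; open symbols mark 0 reads. In each library every receptor gene of both branches lies above every ligand gene other than Bmp1, and Acvr2a is the BMP receptor gene with the highest level.

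Among the ligand genes, Bmp1 had the highest level per length, at 8.57 RPKM in Npas3+/- and 8.08 RPKM in WT. Its product is a metalloprotease that cleaves procollagen and the antagonist chordin, and is no BMP-type growth factor. It stood at 75.1, 69.9 and 83.0 CPM in Npas3+/-, against 74.5, 64.6 and 76.1 CPM in WT, and the groups overlapped (log2 fold change 0.08, 95% interval -0.13 to 0.30). The growth factor genes were far lower, in the order Bmp7 (1.32 RPKM in Npas3+/- and 1.41 in WT), Bmp2 (0.654 and 0.727), Bmp6 (0.283 and 0.426), Bmp5 (0.170 and 0.119) and Bmp4 (0.0567 and 0.0587). Bmp5 and Bmp6 overlapped widely between libraries, so their order is not settled.

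Bmp7, which acts through the type I receptors named below, was at 6.36, 4.94 and 4.65 CPM in Npas3+/- and 4.70, 6.38 and 5.87 CPM in WT. Bmp6 spread widely, above all in WT, with 1.56, 0.754 and 0.993 CPM in Npas3+/- against 2.88, 1.74 and 0.362 CPM in WT. WT replicates 1 and 3 of Bmp6 thus lay above and below all Npas3+/- libraries. Bmp4 had 6, 16 and 8 reads in Npas3+/- and 10, 15 and 5 reads in WT, so that its 95% interval ran from -1.82 to 1.70 on the log2 scale. None of the 6 ligand genes reached an unadjusted p under 0.05, and their median log2 fold change was -0.07. Of the exon bases of Bmp5, 46.7% also lie in Gm26903 on the opposite strand, and the use of strand in the counting is not given in the sources used here. Meningeal fibroblasts and the choroid plexus are known sources of BMPs near the cortex. Their markers summed to 35.9 to 39.0 CPM (10 meningeal genes) and 16.5 to 18.1 CPM (10 choroid plexus genes) in Npas3+/-, against 33.4 to 39.0 and 15.7 to 19.0 CPM in WT. Most of the meningeal sum was Igf2, at 20.6, 25.7 and 22.5 CPM in Npas3+/- and 27.1, 23.0 and 21.8 CPM in WT. Of the 8 meningeal genes tested, 5 had a log2 fold change above 0 and 3 below, with a median of 0.10. Col3a1 stood at 2.69, 2.94 and 2.74 CPM in Npas3+/- against 1.82, 1.74 and 2.08 CPM in WT. Its groups did not overlap (unadjusted p = 0.0164, adjusted p = 0.322 in edgeR). Most of the choroid plexus sum was Enpp2, at 15.2, 13.4 and 15.4 CPM in Npas3+/- and 14.6, 15.9 and 13.1 CPM in WT. The defining choroid gene Ttr stood at 1.41, 1.91 and 0.622 CPM in Npas3+/- against 0, 0.238 and 0 CPM in WT, with no overlap (unadjusted p = 0.0113, adjusted p = 0.29 in edgeR). Of the 7 choroid plexus genes tested, 5 went the other way, and the median log2 fold change of the 7 was -0.33. The part of meninges and choroid plexus in the ligand values was not tested.

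Of the BMP receptor genes, 5 of 6 had a log2 fold change below 0 (51.8% of all genes), with a median of -0.10 over all 6. For 3 of the 6 all Npas3+/- libraries lay below all WT libraries, as they did for 9.18% of all genes. Outside the members, 9 further receptor and coreceptor genes of the BMP and TGF-beta family had 5 values above 0 and 4 below (median 0.06). None of these 9 reached an unadjusted p under 0.05, and all overlapped between the groups. Acvr2a (ENSMUSG00000052155, chr2:48814109-48903269, plus strand, GRCm38), a type II receptor kinase for activins and BMPs, was the receptor gene with the highest level, at 21.7 RPKM in Npas3+/- and 31.9 RPKM in WT. It stood at 127.8, 113.7 and 128.3 CPM in Npas3+/-, against 146.7, 198.5 and 198.8 CPM in WT. The Npas3+/- libraries lay close together, and WT replicate 1 lay nearer to them than to the other 2 WT libraries. The Npas3+/- mean was 68.0% of WT, a log2 fold change of -0.56 (SE 0.12, 95% interval -0.84 to -0.27), with an adjusted p of 0.271 in edgeR and 0.00322 in DESeq2. With 1 library left out, the log2 fold change of Acvr2a ran from -0.69 to -0.48 and its adjusted p from 0.0503 to 0.601 in edgeR, with the lowest p without WT replicate 1. Over all edgeR alternatives its adjusted p ran from 0.0503 to 0.78. Of the exon bases of Acvr2a, 7.84% also lie in Orc4 on the opposite strand.

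The related type II gene Acvr2b stood at 20.8, 22.4 and 23.2 CPM in Npas3+/-, against 25.1, 27.4 and 24.9 CPM in WT. All Npas3+/- libraries lay below all WT libraries, by a log2 fold change of -0.22 (95% interval -0.42 to -0.02). Bmpr1a, a type I receptor that binds BMPs and is needed for dorsal midline development in mouse, was at 70.6, 73.2 and 74.0 CPM in Npas3+/- and 81.6, 78.1 and 83.2 CPM in WT. Its groups did not overlap either, and the difference was small, at -0.16 on the log2 scale (95% interval -0.29 to -0.02). Neither gene passed over all genes (adjusted p = 0.373 for Acvr2b and 0.354 for Bmpr1a in edgeR, and 0.238 and 0.235 in DESeq2).

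The other 3 receptor genes overlapped between the genotypes. Bmpr2, the type II receptor that serves BMPs in particular, was at 227 ± 7.52 CPM in Npas3+/- and 233 ± 6.47 CPM in WT (SD, n = 3 each), with a narrow interval from -0.15 to 0.08 on the log2 scale. The type I genes Bmpr1b (11.6 ± 0.352 CPM in Npas3+/-, 11.8 ± 0.699 CPM in WT) and Acvr1 (58.8 ± 8.75 and 56.3 ± 8.53 CPM) had log2 fold changes of -0.02 and 0.06. Summed over the 6 receptor genes, levels were 499, 519 and 529 CPM in Npas3+/-, against 565, 603 and 599 CPM in WT. Without Acvr2a the sums were 371, 405 and 401 CPM in Npas3+/- and 418, 404 and 400 CPM in WT and overlapped, so the separation of the sums depended on Acvr2a. The mean deviation of log2 CPM from the mean of all libraries, which weighs these genes alike, still separated the groups without Acvr2a. It was -0.113, 0.0048 and -0.0022 in Npas3+/- and 0.0633, 0.027 and 0.0202 in WT, a narrow gap. The genes left still include Bmpr1a and Acvr2b, whose groups did not overlap singly. The separation of this mean is therefore no further support for a lower level across the receptor genes. The 16 markers of radial glia and astrocytes were also lower in all Npas3+/- libraries when summed, at 1407 to 1694 CPM in Npas3+/- and 1886 to 2015 CPM in WT, and the part of these cells in the receptor values was not tested.

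The promoters of the 3 receptor genes with no overlap between groups are shown because these genes were lower in the same libraries. Each runs from 250 bases before to 50 bases after the annotated start (RefSeq, GRCm38.p6), and capitals mark GGCGCC, the GC-rich element bound by SMAD1 and SMAD5. The Acvr2a window is chr2:48813859-48814158 on the plus strand, that of Acvr2b chr9:119401928-119402227 on the plus strand, and that of Bmpr1a chr14:34502497-34502796 on the minus strand.
Acvr2a: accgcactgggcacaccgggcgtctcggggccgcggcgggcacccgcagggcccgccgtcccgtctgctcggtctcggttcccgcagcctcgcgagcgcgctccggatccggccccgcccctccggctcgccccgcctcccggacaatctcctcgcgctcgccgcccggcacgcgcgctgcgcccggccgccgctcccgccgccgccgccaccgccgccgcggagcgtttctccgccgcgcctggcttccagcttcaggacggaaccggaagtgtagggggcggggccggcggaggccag
Acvr2b: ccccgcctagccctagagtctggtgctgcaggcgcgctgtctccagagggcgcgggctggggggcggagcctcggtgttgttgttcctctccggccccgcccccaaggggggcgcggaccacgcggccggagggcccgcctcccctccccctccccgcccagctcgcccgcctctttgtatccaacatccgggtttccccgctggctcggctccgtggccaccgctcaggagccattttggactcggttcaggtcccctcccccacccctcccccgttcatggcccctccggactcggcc
Bmpr1a: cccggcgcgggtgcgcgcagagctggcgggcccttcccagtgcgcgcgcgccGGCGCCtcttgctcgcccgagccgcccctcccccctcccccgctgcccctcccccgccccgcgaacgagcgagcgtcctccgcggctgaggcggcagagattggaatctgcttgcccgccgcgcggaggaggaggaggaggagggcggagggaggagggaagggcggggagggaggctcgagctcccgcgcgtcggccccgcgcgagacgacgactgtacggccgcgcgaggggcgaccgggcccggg
All 3 windows are rich in G and C, at 80.3% for Acvr2a, 73.3% for Acvr2b and 79.3% for Bmpr1a, where the median was 65.7% over 38 promoters of 28 members and 52.7% over all 32851 promoters of the table. The motif GGCGCC, which reads the same on both strands, occurred once in the Bmpr1a window, starting 198 bases before the start, and was not in the Acvr2a and Acvr2b windows. It occurred in 13 of the 38 member promoters (34.2%) and in 11.9% of all promoters. The 13 belong to 11 genes, since Cntfr and Smad5 each have a pair of overlapping windows that hold the same site, and the base composition of the 2 sets differs as given above.

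**Figure D2:**
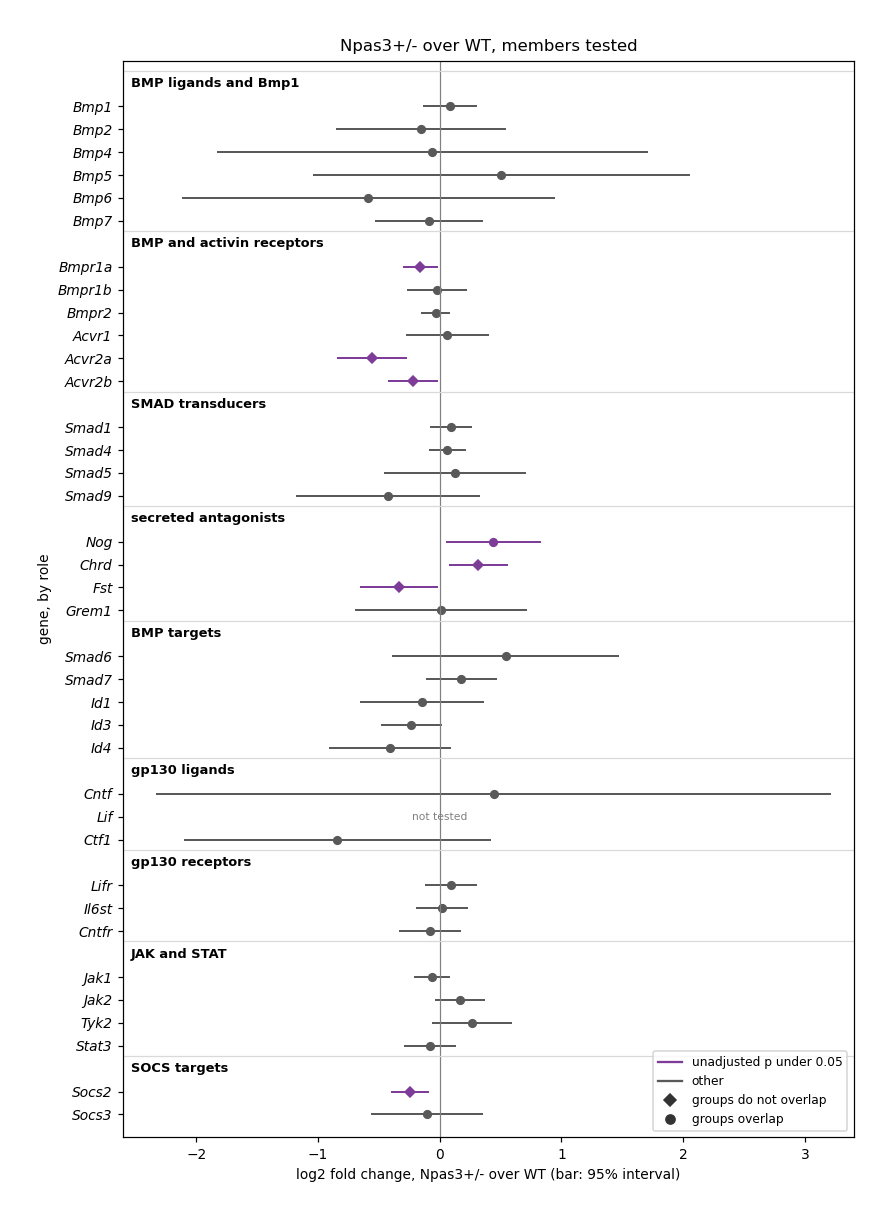
Log2 fold change of Npas3+/- over WT for each member tested (points) with its 95% interval (bars), by role; purple marks an unadjusted p under 0.05 and diamonds mark groups that do not overlap. Acvr2a lies farthest from 0 among the 7 purple genes, at -0.56, and the 5 widest intervals are those of the ligand genes Cntf, Bmp4, Bmp5, Bmp6 and Ctf1.

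None of the 4 SMAD transducers reached an unadjusted p under 0.05. Smad4, the partner shared by all receptor-activated SMADs, was the transducer with the highest level, at 24.6 RPKM in Npas3+/- and 23.6 RPKM in WT. It stood at 90.6, 94.2 and 89.4 CPM in Npas3+/-, against 85.9, 84.1 and 92.4 CPM in WT, and the groups overlapped (log2 fold change 0.06, 95% interval -0.08 to 0.20). Smad1, which BMP receptors phosphorylate, was at 61.9 ± 3.11 CPM in Npas3+/- and 57.9 ± 3.10 CPM in WT (SD, n = 3 each). Smad5, its close relative, differed far more within genotypes, with 76.4, 79.8 and 116.0 CPM in Npas3+/- and 79.3, 111.9 and 58.8 CPM in WT. The highest Smad5 libraries were Npas3+/- replicate 3 and WT replicate 2, and its log2 fold change was 0.12 (95% interval -0.45 to 0.70). Smad9, the third BMP-activated SMAD, was at 0.179 RPKM in Npas3+/- and 0.241 RPKM in WT, below the other transducers in every library, with a log2 fold change of -0.43 (95% interval -1.18 to 0.32).

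Secreted antagonists did not go one way. Nog, which encodes noggin, a protein that binds BMPs and keeps them from their receptors, had the highest level of the 4, at 5.90 RPKM in Npas3+/- and 4.34 RPKM in WT. It stood at 11.1, 10.5 and 8.41 CPM in Npas3+/-, against 6.33, 8.49 and 7.27 CPM in WT, with an overlap only between Npas3+/- replicate 3 and WT replicate 2. Its log2 fold change was 0.44 (SE 0.16, 95% interval 0.06 to 0.82), with adjusted p = 0.364 in edgeR and 0.169 in DESeq2. Chrd, which encodes the BMP-binding protein chordin, was at 23.1, 26.9 and 23.0 CPM in Npas3+/-, against 19.2, 18.4 and 21.0 CPM in WT. All 3 Npas3+/- values of Chrd lay above all 3 WT values, by 0.32 on the log2 scale (SE 0.10, 95% interval 0.08 to 0.55), and the gene did not pass over all genes (adjusted p = 0.315 in edgeR and 0.11 in DESeq2).

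Fst, which encodes the activin-binding protein follistatin, lay the other way, at 9.53, 10.2 and 9.61 CPM in Npas3+/- and 11.51, 11.03 and 14.48 CPM in WT. The Fst groups did not overlap (log2 fold change -0.33, 95% interval -0.64 to -0.02, adjusted p = 0.383 in edgeR), and WT replicate 3 was the highest library. Without WT replicate 3 the log2 fold change of Fst was -0.20. Grem1, which encodes the BMP antagonist gremlin, was at 5.81 ± 2.17 CPM in Npas3+/- and 5.76 ± 1.55 CPM in WT (SD, n = 3 each), with the highest value, 8.29 CPM, in Npas3+/- replicate 1. The Chrd promoter is shown as that of the antagonist with no overlap and a higher level, with GGCGCC in capitals (RefSeq, GRCm38.p6, chr16:20732877-20733176, plus strand).
Chrd: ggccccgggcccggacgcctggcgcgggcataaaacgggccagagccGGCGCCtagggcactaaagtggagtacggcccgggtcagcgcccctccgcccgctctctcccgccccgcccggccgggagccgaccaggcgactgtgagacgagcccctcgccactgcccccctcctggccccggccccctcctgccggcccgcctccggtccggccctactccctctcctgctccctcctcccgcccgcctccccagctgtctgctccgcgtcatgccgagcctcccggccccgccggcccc
The motif started 203 bases before the Chrd start, and 78.3% of the window was G or C.

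**Figure D3:**
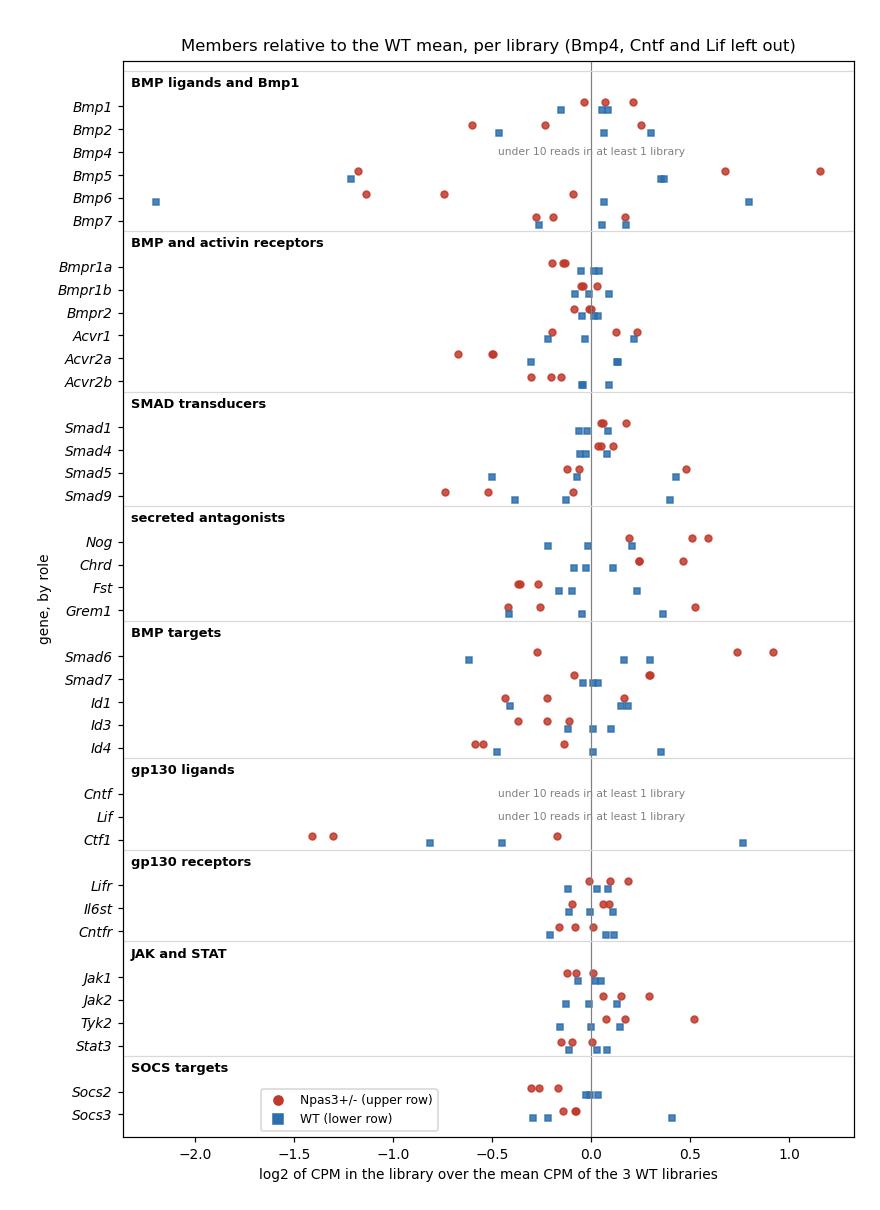
Log2 of the CPM in each library over the mean of the 3 WT libraries, by gene and role, with Npas3+/- circles in the upper row and WT squares in the lower row of each gene; Bmp4, Cntf and Lif, with under 10 reads in at least 1 library, are left out. The 3 circles lie left of the 3 squares for Bmpr1a, Acvr2a, Acvr2b, Fst and Socs2 and right of them for Chrd.

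BMP target genes were followed by their RNA level, and the activity of the branch itself was not measured. Id4, an inhibitor of helix-loop-helix factors that is expressed in cortical progenitors, had the highest level of them, at 11.9 RPKM in Npas3+/- and 15.9 RPKM in WT. It stood at 40.6, 41.7 and 55.4 CPM in Npas3+/-, against 61.4, 77.9 and 43.8 CPM in WT, so that WT replicate 3 lay among the Npas3+/- libraries. The log2 fold change of Id4 was -0.41 (SE 0.21, 95% interval -0.90 to 0.08, adjusted p = 0.489 in edgeR). Id3, its relative in progenitors and vessels, was at 20.34, 17.01 and 18.85 CPM in Npas3+/- and 23.60, 22.15 and 20.25 CPM in WT, where Npas3+/- replicate 1 and WT replicate 3 nearly coincided (-0.23, 95% interval -0.48 to 0.01). Id1 was at 8.16, 7.06 and 10.7 CPM in Npas3+/- and 7.18, 10.9 and 10.6 CPM in WT, with full overlap (-0.14, 95% interval -0.65 to 0.36).

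The inhibitory SMAD genes, which BMP signals switch on and whose products dampen the receptors, had positive values. Smad7 was at 20.2 ± 2.94 CPM in Npas3+/- and 17.9 ± 0.501 CPM in WT (SD, n = 3 each), while Smad6 averaged 1.42 CPM in Npas3+/- and 0.977 CPM in WT. Both overlapped between the groups, with log2 fold changes of 0.18 (95% interval -0.10 to 0.46) and 0.54 (-0.39 to 1.47). Thus none of the 5 targets reached an unadjusted p under 0.05, and their fold changes had both signs.

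The sum of the Id genes among the members was set beside the sums of cell type markers. Summed over Id1, Id3 and Id4, levels were 69.1, 65.8 and 84.9 CPM in Npas3+/-, against 92.2, 110.9 and 74.6 CPM in WT. Of 16 radial glia and astrocyte markers, 14 had negative log2 fold changes (51.8% of all genes), with a median of -0.36 over the 16. At an unadjusted p under 0.05 in edgeR, 11 were lower (68.8%, against 5.84% of all genes). None passed in edgeR. DESeq2 called 4 of the 15 to which it gave an adjusted p, where it called 3.4% of all genes with an adjusted p. Their summed levels, given with the receptors, did not overlap between the genotypes. The 16 striatal markers summed to 268, 287 and 346 CPM in Npas3+/- replicates 1 to 3 and 470, 529 and 269 CPM in the WT replicates. The sum of Id1, Id3 and Id4 and the striatal sum were thus both highest in WT replicates 1 and 2. Both were also higher in Npas3+/- replicate 3 than in WT replicate 3. Id1 and Id3 taken singly did not keep this order. Id1 was lower in WT replicate 1 (7.18 CPM) than in WT replicate 3 (10.6 CPM). Id3 was lower in Npas3+/- replicate 3 (18.85 CPM) than in WT replicate 3 (20.25 CPM). Id2, which is not a member and not in the sum, had a far higher level and did not keep the order either. It stood at 274, 287 and 293 CPM in Npas3+/- and 312, 281 and 396 CPM in WT, with WT replicate 3 highest. Neither marker list had a gene at 0 in all libraries, and the part of radial glia in the Id values was not tested. With the striatal score (the mean log2 deviation of these markers) as a covariate the log2 fold change of Id4 was 0.03, that of Id3 -0.16 and that of Id1 -0.05. In the same fit Acvr2a stood at -0.58, Bmpr1a at -0.17, Acvr2b at -0.15, Nog at 0.35 and Chrd at 0.21. With 1 library left out Id4 ran from -0.60 (without WT replicate 3) to -0.20 (without WT replicate 2).

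**Figure D4:**
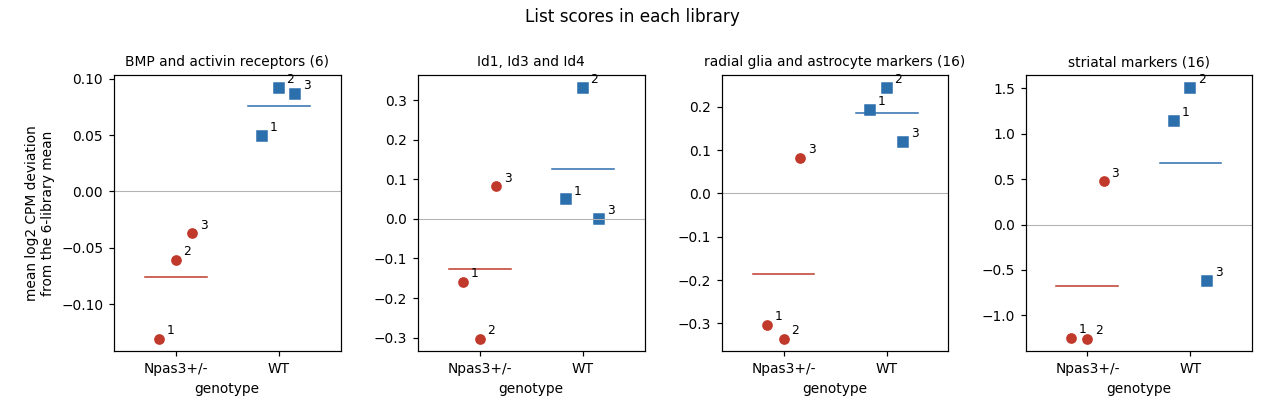
Score of 4 gene lists in each library, the mean deviation of log2 CPM from the mean of the 6 libraries, with Npas3+/- left of WT; numbers are the replicates and lines the group means. Receptor scores lie between -0.13 and -0.04 in Npas3+/- and between 0.05 and 0.09 in WT. The scores of Id1, Id3 and Id4 and of the striatal markers overlap between the genotypes.

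In the JAK-STAT branch the ligand genes were near the limit of detection. Lif, the gene of leukaemia inhibitory factor, had 8, 8 and 5 reads in Npas3+/- and 0, 5 and 0 reads in WT, and was too low to be tested. Cntf, which encodes ciliary neurotrophic factor, had 0, 60 and 54 reads in Npas3+/- and 14, 22 and 45 reads in WT, and a count of 0 allows up to 0.0341 CPM in that library. Of the exon bases of Cntf, 78.9% also lie in Zfp91 on the same strand, so its count is uncertain. Per length, Cntf was at 0.465 RPKM in Npas3+/- and 0.340 RPKM in WT, and Ctf1, the gene of cardiotrophin, at 0.333 and 0.598 RPKM, so their order differed between the genotypes. Ctf1 had 85, 34 and 31 reads in Npas3+/- and 42, 67 and 133 reads in WT. Its log2 fold change of -0.84 had a wide interval, from -2.09 to 0.41.

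The receptors were well measured and lay close to WT. Cntfr, the CNTF-binding subunit, had the highest level of them, at 10.7 RPKM in Npas3+/- and 11.3 RPKM in WT. It stood at 28.08, 29.66 and 31.64 CPM in Npas3+/- and 33.06, 34.03 and 27.15 CPM in WT, and WT replicate 3 was the lowest library (log2 fold change -0.08, 95% interval -0.32 to 0.17). Lifr, the LIF receptor subunit, was at 38.8 ± 2.66 CPM in Npas3+/- and 36.4 ± 2.64 CPM in WT, and Il6st, which encodes gp130, at 39.5 ± 2.71 and 39.0 ± 3.03 CPM (SD, n = 3 each). The 95% intervals of their log2 fold changes ran from -0.11 to 0.30 for Lifr and from -0.19 to 0.23 for Il6st. Microglia and vessels also carry receptors of this family, and their markers summed to 27.9 to 49.3 CPM (10 microglial genes) and 154 to 158 CPM (10 endothelial genes) in Npas3+/-, against 44.7 to 52.3 and 151 to 165 CPM in WT. All 10 microglial markers had a log2 fold change below 0 (median -0.39), as had 8 of the 10 endothelial markers (median -0.05) and 51.8% of all genes. None of these markers passed in edgeR, and the part of these cells in the receptor values was not tested.

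Among the kinases and STAT3, the highest level was that of Jak2, at 28.5 RPKM in Npas3+/- and 25.4 RPKM in WT. It stood at 155.8, 141.5 and 133.1 CPM in Npas3+/-, against 139.4, 116.8 and 126.5 CPM in WT, with overlap of WT replicate 1 (log2 fold change 0.17, 95% interval -0.03 to 0.37). Jak1, the kinase tied to gp130, was at 119.8 ± 5.64 CPM in Npas3+/- and 125.1 ± 5.26 CPM in WT, and Tyk2, a further kinase of the family, at 25.9 ± 4.31 and 21.5 ± 2.23 CPM (SD, n = 3 each). Stat3, the transcription factor of the branch, stood at 24.6, 23.7 and 26.4 CPM in Npas3+/- and 26.9, 27.8 and 24.4 CPM in WT. Its groups overlapped, and the interval of its log2 fold change ran from -0.29 to 0.12.

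The 2 feedback genes differed in how they varied. Socs2, an inhibitor best known for damping growth hormone signals, (ENSMUSG00000020027, chr10:95385362-95417180, minus strand, GRCm38) was at 55.1, 53.6 and 58.9 CPM in Npas3+/-, against 65.0, 67.7 and 65.9 CPM in WT. All Npas3+/- values of Socs2 lay below all WT values, and both groups were tight. The Npas3+/- mean was 84.4% of WT, a log2 fold change of -0.24 (SE 0.06, 95% interval -0.39 to -0.10). It did not pass in edgeR (adjusted p = 0.276) and lay just under the threshold in DESeq2 (adjusted p = 0.0492). With 1 library left out, the log2 fold change of Socs2 ran from -0.28 to -0.21 and its adjusted p in edgeR from 0.205 to 0.602. Over all edgeR alternatives that adjusted p ran from 0.205 to 0.78.

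Socs3, which inhibits gp130 itself and is a direct target of STAT3, stood at 9.42, 9.04 and 9.46 CPM in Npas3+/-, against 8.59, 8.15 and 13.2 CPM in WT. The WT libraries lay on both sides of the Npas3+/- libraries, and the log2 fold change of -0.10 (95% interval -0.55 to 0.35) was 0.16 without WT replicate 3. The promoters of Id4 and Socs3 are shown as those of a target of each branch (RefSeq, GRCm38.p6). Capitals mark GGCGCC in both and, in Socs3, also TTCNNNGAA, the palindrome that STAT dimers bind, which likewise reads the same on both strands. The windows are chr13:48260866-48261165 on the plus strand for Id4 and chr11:117969317-117969616 on the minus strand for Socs3.
Id4: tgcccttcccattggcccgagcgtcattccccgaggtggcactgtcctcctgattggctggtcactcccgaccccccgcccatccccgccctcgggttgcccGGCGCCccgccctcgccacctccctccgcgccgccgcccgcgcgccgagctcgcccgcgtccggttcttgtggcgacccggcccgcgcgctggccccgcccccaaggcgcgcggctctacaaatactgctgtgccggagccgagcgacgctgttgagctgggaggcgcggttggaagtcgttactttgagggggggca
Socs3: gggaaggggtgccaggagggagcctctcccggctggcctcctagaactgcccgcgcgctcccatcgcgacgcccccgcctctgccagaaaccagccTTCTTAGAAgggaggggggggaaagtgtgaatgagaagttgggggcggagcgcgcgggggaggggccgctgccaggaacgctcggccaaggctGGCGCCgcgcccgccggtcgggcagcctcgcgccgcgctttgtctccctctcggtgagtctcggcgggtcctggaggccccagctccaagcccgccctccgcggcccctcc
The STAT motif started 154 bases before the Socs3 start and the GGCGCC motif 61 bases before it, with no overlap between them, and the GGCGCC of Id4 started 148 bases before its start. The STAT motif occurred in 1 of the 38 member promoters and in 8.3% of all promoters of this length.

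**Figure D5:**
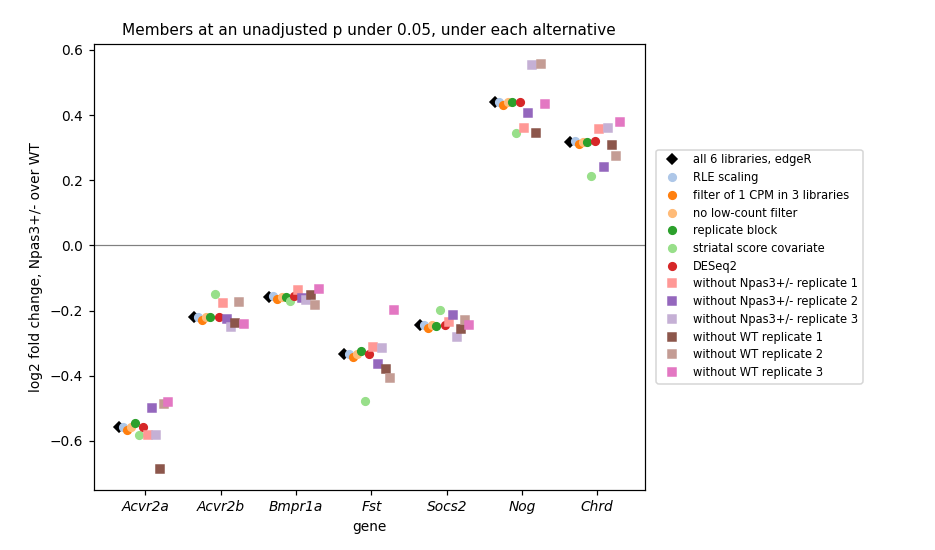
Log2 fold change of Npas3+/- over WT for the 7 members at an unadjusted p under 0.05, with all 6 libraries in edgeR (black diamonds), under other settings (circles) and with 1 library left out (squares). The 5 lower genes stay below 0 and the 2 higher genes above 0 throughout, with Acvr2a between -0.69 and -0.48. The genes were picked by p in these same libraries, so the kept signs are no independent support.

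Beyond the 37 members, 73 further genes of both branches and of the related TGF-beta and activin signals were looked up, of which 69 were tested. None passed in edgeR over all genes. At an unadjusted p under 0.05 there were 10 (14.5%, against 12.1% of all genes), 4 higher and 6 lower, and the median log2 fold change was -0.01. Those with the smallest p were inhibitors and a cytokine of the JAK-STAT branch. Socs7, a SOCS family gene, was at 184 ± 10.7 CPM in Npas3+/- and 152 ± 5.34 CPM in WT (log2 fold change 0.27, SE 0.06, adjusted p = 0.272 in edgeR), and was the only one that DESeq2 called (adjusted p = 0.0256) of the 57 to which it gave an adjusted p. Cish, a feedback inhibitor induced by STAT5, was at 17.6 ± 1.78 CPM in Npas3+/- and 13.2 ± 1.12 CPM in WT (0.42, SE 0.12), and Il11, a cytokine of the gp130 family, at 0.435 ± 0.112 and 1.12 ± 0.302 CPM (-1.36, SE 0.36, with no adjusted p in DESeq2). The groups did not overlap for any of these 3 genes, nor for 14 of the 69 in all (20.3%, against 18.9% of all genes).

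Other genes with small p were Stat2, a STAT of interferon signalling (log2 fold change 0.40), and Socs4 of the SOCS family (-0.25). Hey1, a target of Notch and BMP signals, stood at -0.48. Of the TGF-beta and activin genes, the ligand gene Tgfb2 stood at -0.37 and Inhba, which encodes an activin subunit, at 0.37. None of these 5 passed (adjusted p = 0.311 to 0.351 in edgeR and 0.0824 to 0.131 in DESeq2). Inhba stood at 75.0 ± 11.7 CPM in Npas3+/- and 58.1 ± 7.61 CPM in WT (SD, n = 3 each) and overlapped between the groups. The remaining genes at an unadjusted p under 0.05 were the BMP-branch genes Gdf10 (log2 fold change -0.35) and Bmper (-0.77). Both were lower in Npas3+/- with no overlap between groups. Neither passed (adjusted p = 0.357 and 0.389 in edgeR, and 0.169 and 0.153 in DESeq2).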

How the data were processed

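The deposited file holds unnormalized counts by gene for 3 Npas3+/- and 3 WT libraries; the NP columns were taken as Npas3+/-, the only genotype other than WT. The authors made them with HISAT2 2.1.0, featureCounts and Trimmomatic 0.3.8 on mm10, according to the submitters' processing notes; whether counting used strand or multiply matched reads, and on which annotation, is not given in the sources used here. Identifiers were matched to GENCODE M21 of the same build (53274 of 53379), which also gave exon lengths. Counts were analysed in edgeR 4.0.16 (R 4.3.3) with filterByExpr (21244 genes), TMM scaling and the quasi-likelihood test of genotype, without covariates, adjusted by Benjamini-Hochberg over all genes at a threshold of 0.05. Standard errors are the fold change over the square root of F, and 95% intervals use its t distribution. The biological coefficient of variation was 26.1%. The smallest two-sided p of an exact permutation test is 0.1 at 3 against 3, so none was run. The fit was tested on simulated data.

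Alternatives were DESeq2 1.42.0, RLE scaling, 2 other filters on low counts (1 CPM in 3 libraries, or none), the replicate number as a block, the striatal marker score as a covariate (log2 CPM, prior count 2) and each library left out in turn. The members, lists and alternatives were chosen with earlier results of these data known. Full values were given for members at an unadjusted p under 0.05 or with no overlap, the highest in RPKM of each role, and Id1, Id3, Id4, Stat3 and Socs3. No library repeated another (chi-square per gene of at least 38.97 between libraries of a genotype). Intervals on single counts cover counting error only.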

Additional observations from a re-analysis of the deposited data

How the results depend on the processing

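In edgeR, no member passed under any alternative with all libraries or with 1 left out; DESeq2 called 2, both lower. The 7 members at an unadjusted p under 0.05 kept their sign under every alternative run. They were picked by p from these same libraries. Where groups do not overlap, leaving out 1 library can hardly turn the sign, so this is no independent support. Of 428 values of single members under alternatives, 33 had the opposite sign, spread over 17 of 36 members and none past the threshold; the cause was not tested.

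With the striatal score as a covariate the median was 0.0295 and 1 member was higher at an unadjusted p under 0.05; reversed log2 fold changes were 0.33 for Bmp2, 0.36 for Bmp4, -0.48 for Bmp5, 0.59 for Bmp6, 0.0056 for Bmpr2, -0.31 for Grem1, 0.0303 for Id4, 0.0934 for Cntfr, 0.0157 for Jak1 and 0.0286 for Stat3. The replicate numbers did not pair the samples (correlations of same-numbered libraries -0.088 to 0.037); with the replicate block 2 members were lower at an unadjusted p under 0.05, Grem1 stood at -0.0235 and Cntf at -0.28, and 3 genes of all passed, against 8 without it.

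With 1 library left out, the median ran from -0.0545 to -0.0009. Members at an unadjusted p under 0.05 numbered 3 to 8 (1 to 3 higher, 2 to 6 lower), and members whose groups did not overlap 7 to 16. The shares over all genes also moved with the library left out, as given above for some of these fits. These ranges are therefore not read as a result about the members. Log2 fold changes that changed sign ran from -0.0335 to 0.19 for Acvr1, -0.40 to 0.0281 for Bmp2, -0.60 to 0.25 for Bmp4, -1.06 to 0.0687 for Bmp6, -0.24 to 0.0099 for Bmp7, -0.0592 to 0.0252 for Bmpr1b, -0.0409 to 1.08 for Cntf, -0.34 to 0.24 for Grem1, -0.0308 to 0.0791 for Il6st, -0.0886 to 0.39 for Smad5 and -0.23 to 0.16 for Socs3. Low counts limit Bmp4, Bmp5, Bmp6, Cntf, Lif and Ctf1.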
